A study of Homo sapiens with 9 samples.

Results

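Wnt ligands, the proteins that secrete them, their receptors and their extracellular antagonists are described here in RNA from vesicles released by H9, a human embryonic stem cell line. They were taken by gene symbol from the array annotation, as WNT, FZD (Frizzled), SFRP (secreted Frizzled-related protein) or DKK (Dickkopf) followed by a digit, or as LRP5, LRP6, FRZB, WIF1, PORCN or WLS. The rule uses no measured value, although it was set with earlier results of these data known, and it gave 41 of 19775 genes: 17 ligands, 1 gene of ligand secretion, 11 receptors, 10 antagonists and 2 non-coding RNAs, FZD4-DT and FZD10-AS1, which match by symbol alone. FZD8 and WNT3 were paired only with probe sets that the annotation shares among several genes and were left out, and PORCN was not analysed here.

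The 9 arrays fall into 3 groups of 3, and no allele or agent separates them. All vesicles came from the medium that untreated H9 human embryonic stem cells (hESCs), grown without serum or feeder cells in mTeSR1 on Matrigel, had held for 24 hours near confluence. Clearing spins came first, a spin of 1 hour at 16500g then gave the microvesicles (MVs), and what remained gave the exosomes (EXOs) after 2 hours at 120000g. Non-fractionated vesicles (hESEVs) hold both fractions. Per the labels they were pelleted at 120000g directly after a 300g spin, while the study's methods describe a faster clearing spin that removes apoptotic bodies and a faster and longer final spin, so how far hESEVs were cleared of such bodies is not settled. A spin separates vesicles by size and density and not by origin, all samples come from 1 cell line, and the RNA of the cells themselves is not analysed here.

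Wnt ligands are secreted lipid-modified proteins. WLS carries them to the cell surface, where they bind a Frizzled receptor, and in canonical signaling LRP5 or LRP6 as well, which keeps beta-catenin from being degraded and lets it act with TCF factors on target genes. SFRPs, FRZB and WIF1 bind ligands outside the cell, and DKK1 blocks the LRP co-receptors. In hESCs the pathway is known for its part in both self-renewal and the onset of mesendoderm differentiation, and FZD7 for being the most abundant Frizzled of undifferentiated cells.

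Values are MAS5 signals, a hybridization intensity per probe set that the authors scaled to a target of 500 on each array. They compare 1 probe set between arrays, and they do not rank different genes by abundance. A log2 difference is between group means of log2 signals, with signals under 32 raised to 32. A gene, read from the probe set with the highest mean over all 9 arrays, was called at a limma Benjamini-Hochberg adjusted p under 0.05 over all genes and a difference of at least 2-fold. As a background level, the 90th percentile of 75 measured genes restricted to other tissues was taken in each group, at signals of 784 in MVs, 1183 in EXOs and 1059 in hESEVs. Where the mean of the lower group is not above its level, its signal may be background, so no fold is printed and the log2 difference describes signals only. In a pooled vesicle sample, fewer vesicles carrying an RNA and fewer copies per vesicle cannot be told apart.

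Over all genes, 11.4% were called higher in MVs than in EXOs and 2.77% higher in EXOs. All 11 measured pluripotency markers were called higher in MVs than in EXOs. Their summed signal ran from 75917 to 79107 in MVs, from 14726 to 17735 in EXOs and from 22390 to 24436 in hESEVs. Of the 5 mesendoderm markers, EOMES was the 1 called, higher in EXOs, and the list summed to between 980 and 1161 in MVs, 2068 and 2814 in EXOs and 1726 and 2215 in hESEVs, with no marker above the background level in any group. None of the measured endoderm, neuroectoderm, neural crest and trophoblast markers was called. The tissue-restricted genes summed to between 28683 and 30785 in MVs, 42472 and 43994 in EXOs and 40308 and 42209 in hESEVs. Of these 75 genes, 5 were called higher in EXOs, beside 2.77% of all genes, and 0 in MVs, beside 11.4%. The ratio of 3′ to 5′ control signals can rise as RNA is degraded. For GAPDH it lay between 2.88 and 2.90 in MVs, 1.39 and 1.71 in EXOs and 1.89 and 2.22 in hESEVs. The same ratio for ACTB was 22.5 to 25.2, 5.64 to 6.80 and 8.48 to 10.2. By electrophoresis, however, the paper found much longer RNAs in MVs than in EXOs. These ratios are therefore not read as a ranking of the groups by RNA integrity. The part of these markers and ratios in the differences below was not tested.

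The promoters of FZD5 and SFRP2 are shown. Both genes were called higher in MVs than in EXOs, and the RefSeq promoter table holds them. FZD7 and SFRP1 were called in the same direction, but their promoters are not shown, so the sequences do not cover all called genes. Each stretch is the 250 bases before the gene's start on the minus strand of GRCh38.p14, 5′ to 3′, for FZD5 at chr2:207769907-207770156 and for SFRP2 at chr4:153789084-153789333. Capitals mark GGGCGG on either strand, the GC box read by SP-family factors.
FZD5: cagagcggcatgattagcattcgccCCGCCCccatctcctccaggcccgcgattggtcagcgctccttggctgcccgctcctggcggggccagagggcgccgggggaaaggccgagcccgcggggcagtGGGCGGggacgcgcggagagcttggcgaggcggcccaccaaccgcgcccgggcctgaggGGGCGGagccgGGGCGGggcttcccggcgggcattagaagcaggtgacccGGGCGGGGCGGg
SFRP2: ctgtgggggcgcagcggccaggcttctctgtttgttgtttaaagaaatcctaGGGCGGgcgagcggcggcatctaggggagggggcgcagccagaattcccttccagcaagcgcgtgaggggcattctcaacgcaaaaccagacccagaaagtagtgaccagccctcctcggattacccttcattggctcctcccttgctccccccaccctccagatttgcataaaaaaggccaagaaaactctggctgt
FZD5 holds 6 such matches at 76.8% G and C, and SFRP2 holds 1 at 57.6%, beside a median of 58.0% over all promoters. The last 2 matches in FZD5 share a base, so not all 6 are separate. GGGCGG stands in 24 of the 31 Wnt gene promoters in the table (77.4%) and in 42.6% of all 35116 stretches of this length. CTTTGA, the core that TCF factors bind, was also searched on both strands and stands in neither sequence, in 1 of the 31 promoters (3.23%) and in 11.2% of all. The 2 motifs do not overlap each other, and a match is a run of letters and not a shown site.

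Most of these genes were not above the background level, and neither was the median signal of all probe sets on any array. That median ran from 358 to 365 in MVs, from 422 to 430 in EXOs and from 415 to 421 in hESEVs. The share of all genes above the level was not counted. The group mean was above the background level for 7 of the 41 genes in MVs, for 4 in EXOs and for 4 in hESEVs, and 32 were above it in no group. FZD3, SFRP1 and WNT6 were above it in all groups. FZD7, LRP6, SFRP2 and DKK3 were above it in MVs, FZD2 in EXOs and FRZB in hESEVs. These 9 genes and FZD5, which was called, are described below array by array. The other 31 had group means from 34.6 to 646 in MVs, from 44.8 to 889 in EXOs and from 60.0 to 841 in hESEVs.

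**Figure D1:**
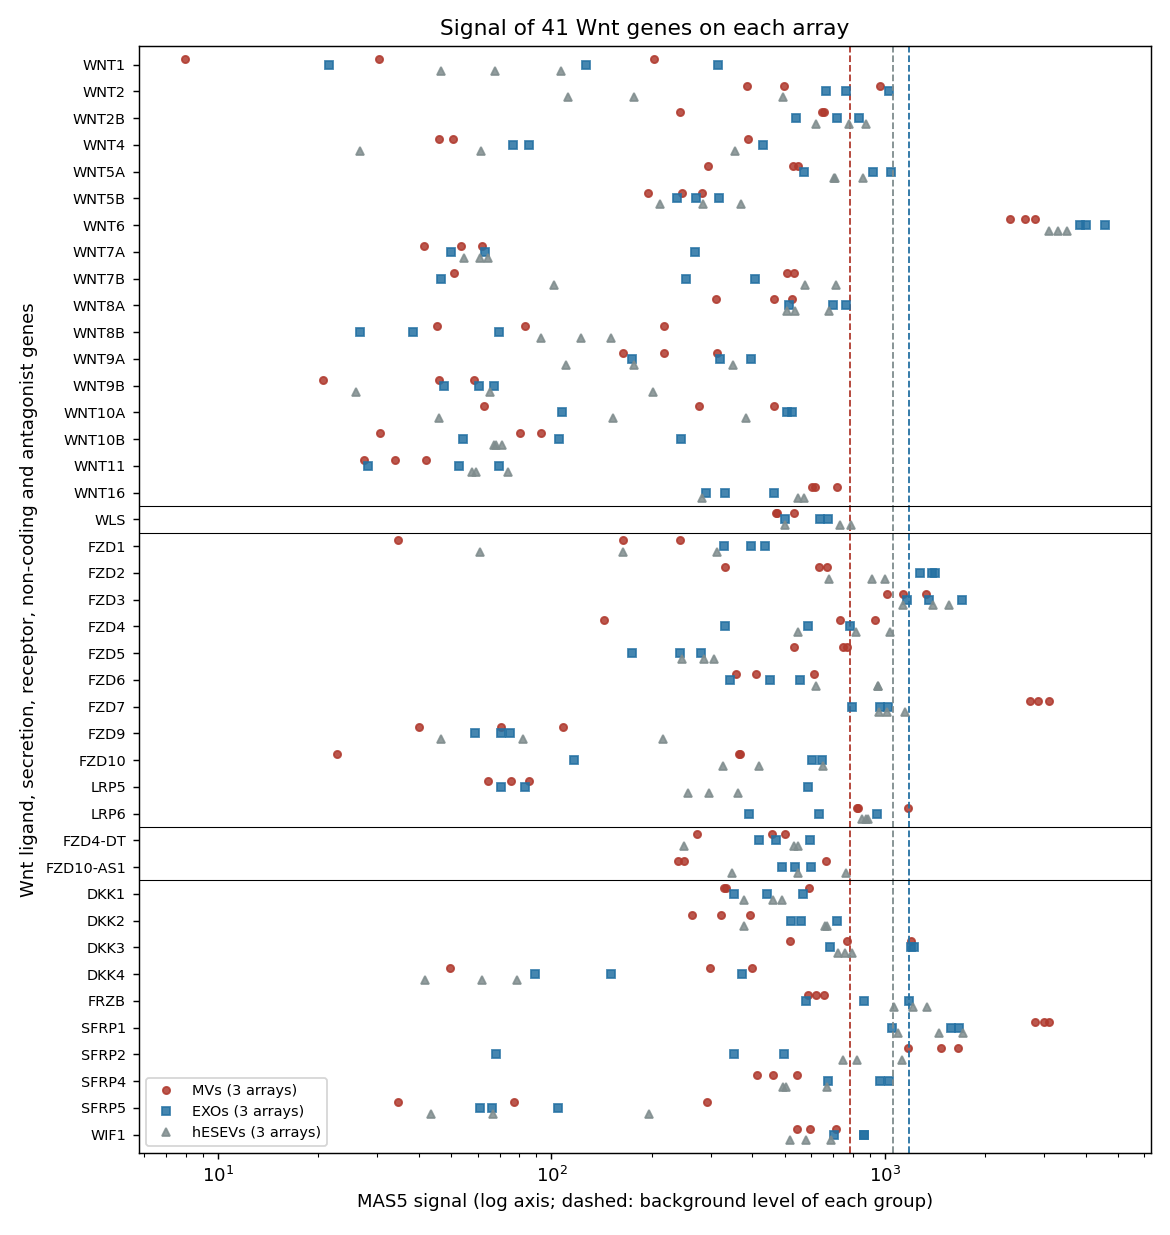
MAS5 signal (log axis) of each of the 41 Wnt genes on each array, with genes as rows grouped into ligands, the secretion gene WLS, receptors, non-coding RNAs and antagonists. Each point is 1 array, with circles for MVs, squares for EXOs and triangles for hESEVs, and the dashed lines give the background levels of 784, 1183 and 1059. FZD7, SFRP1 and SFRP2 show MVs arrays to the right of all EXOs arrays, and most other genes lie left of the lines.

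MVs carried more FZD7, FZD5, SFRP1 and SFRP2 signal than EXOs, and less of FZD2 by its representative probe set. Thus 4 of the 41 genes were called higher in MVs, beside 11.4% of all genes tested, and 1 was called higher in EXOs, beside 2.77% of all genes. The count in EXOs rests on 1 of 2 probe sets that were called in opposite directions. The median log2 difference, MVs minus EXOs, was −0.39 over the 41 genes and −0.23 over all genes. The difference was below 0 for 30 of the 41, a count not made over all genes. The arrays of the 2 groups did not overlap for 5 of the genes in the direction of MVs (12.2%, beside 18.5% of all genes) and for 6 in the direction of EXOs (14.6%, beside 22.6% of all genes).

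**Figure D2:**
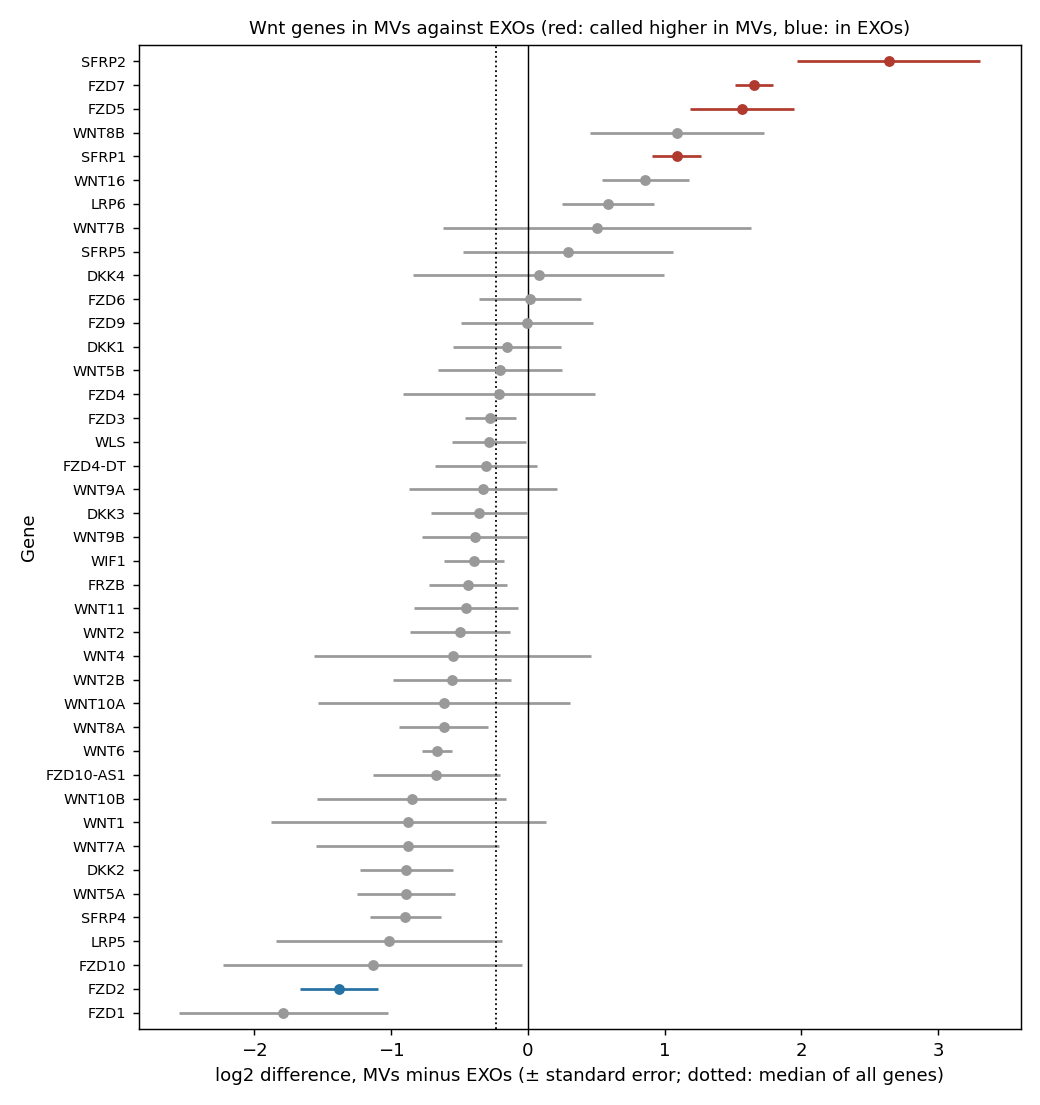
The log2 difference of each of the 41 genes, MVs minus EXOs, with its standard error (3 arrays per group), in order of size. Red points were called higher in MVs (FZD7, FZD5, SFRP1 and SFRP2), the blue point higher in EXOs (FZD2), grey points were not called, and the dotted line is the median of all genes at −0.23.

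Among the 17 ligands none was called, beside 11.4% of all genes called higher in MVs and 2.77% in EXOs. Their median log2 difference was −0.55, beside −0.23 over all genes. WNT6, which acts in epithelial morphogenesis, was the 1 ligand above the background level. The WNT6 signals were 2636, 2376 and 2829 in MVs, 3861, 4557 and 4016 in EXOs, and 3101, 3315 and 3522 in hESEVs. All EXOs arrays lay above all hESEVs arrays, and these above all MVs arrays. WNT6 differed by −0.67 ± 0.11 on the log2 scale (SE, limma adjusted p = 0.0036), a 1.59-fold difference that is past the adjusted p and under 2-fold. After quantile normalization the difference was −1.89 and past both thresholds. These values come from 1 of 4 WNT6 probe sets, and the signals of the other 3 did not pass 323 on any array.

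The other 16 ligands were below the background level in every group by their means. WNT16 was the ligand besides WNT6 with the lowest adjusted p, 0.097 in limma: its signals were 615, 719 and 603 in MVs, 290, 465 and 332 in EXOs, and 571, 550 and 282 in hESEVs. WNT5A, the main ligand of non-canonical signaling, had signals of 550, 295 and 532 in MVs, 1042, 572 and 924 in EXOs, and 709, 705 and 857 in hESEVs (limma adjusted p = 0.12). By their representative probe sets, MVs and EXOs arrays did not overlap for WNT16 and WNT5A, in opposite directions. A second WNT16 probe set went the other way and was not called (log2 difference −0.68, limma adjusted p = 0.52 over all probe sets). WNT16 and WNT5A were chosen after their values were seen. WLS, the ligand carrier, had means of 494 ± 35.6 in MVs, 606 ± 92.7 in EXOs and 675 ± 154 in hESEVs (SD, n = 3), and a log2 difference of −0.29 between MVs and EXOs (limma adjusted p = 0.48).

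FZD7 had the clearest difference among the 11 receptors. The FZD7 signals were 2728, 3100 and 2875 in MVs, 1019, 796 and 965 in EXOs, and 1150, 961 and 1015 in hESEVs. Every MVs array was above every EXOs and hESEVs array, and the latter groups overlapped. The log2 difference between MVs and EXOs was 1.65 ± 0.14 (SE, limma adjusted p = 5.6e-05), with EXOs and hESEVs means under their background levels. A second FZD7 probe set gave 4586, 4396 and 4805 in MVs, 478, 507 and 542 in EXOs, and 787, 966 and 898 in hESEVs. By this probe set the groups were apart on all arrays, MVs highest and EXOs lowest, with a log2 difference of 3.18 ± 0.12 between MVs and EXOs (SE, limma adjusted p = 1.8e-06 over all probe sets). FZD7 kept its call under all 19 alternatives that give it a value, at 1.22 to 2.41 on the log2 scale. Both FZD7 probe sets, and all of SFRP1 and SFRP2, carry the suffix that the array's maker gives to probes matching several transcripts, so these genes cannot be read without such probe sets.

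FZD5, also a receptor for canonical ligands, was called at a lower signal. FZD5 gave 534, 748 and 771 in MVs, 281, 242 and 175 in EXOs, and 307, 286 and 246 in hESEVs. The MVs arrays were above all others, and EXOs and hESEVs arrays overlapped. The difference between MVs and EXOs was 1.56 ± 0.38 on the log2 scale (SE, limma adjusted p = 0.023), while all group means stayed under their background levels, that of MVs at 684 beside 784. Its second probe set, with means of 94.4 in MVs and 60.3 in EXOs, was not called, and without MVs replicate 2 or 3 the FZD5 adjusted p in limma was 0.091 or 0.095. The called FZD5 probe set also carries the suffix for probes matching several transcripts, and the second does not.

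FZD2, a receptor used in both canonical and non-canonical signaling, gave opposite answers by its 2 probe sets. By the representative one its signals were 672, 331 and 632 in MVs, 1414, 1279 and 1384 in EXOs, and 1001, 915 and 681 in hESEVs. All EXOs arrays were above all MVs arrays, with hESEVs arrays between them, and the log2 difference was −1.38 ± 0.29 (SE, limma adjusted p = 0.011). By the other probe set the FZD2 signals were 848, 615 and 799 in MVs, 259, 356 and 284 in EXOs, and 407, 357 and 354 in hESEVs. Here all MVs arrays were above all others, and the log2 difference was 1.33 ± 0.29 (SE, limma adjusted p = 0.022 over all probe sets). The representative probe set of FZD2 carries that suffix, and the other does not. No direction is therefore given for FZD2.

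FZD3, a Frizzled of the planar polarity branch, had signals of 1130, 1012 and 1332 in MVs, 1361, 1707 and 1164 in EXOs, and 1562, 1397 and 1133 in hESEVs. The 3 groups overlapped, and the difference between MVs and EXOs was −0.28 ± 0.19 on the log2 scale (SE, limma adjusted p = 0.33). A further FZD3 probe set, named after its values were seen, gave 667, 669 and 604 in MVs, 1446, 1137 and 1165 in EXOs, and 1049, 971 and 1294 in hESEVs. There all EXOs arrays were above all MVs arrays, at a log2 difference of −0.94 ± 0.17 (SE, limma adjusted p = 0.0093 over all probe sets), past the adjusted p and under 2-fold. LRP6, a co-receptor of canonical signaling, gave 1175, 823 and 830 in MVs, 636, 946 and 392 in EXOs, and 877, 855 and 892 in hESEVs. LRP6 arrays overlapped as well, at a difference of 0.59 ± 0.34 (SE, limma adjusted p = 0.25). The other 6 receptors, FZD1, FZD4, FZD6, FZD9, FZD10 and LRP5, were not called and had means between 68.1 and 841 over the 3 groups. The 2 non-coding RNAs were not called either, with means between 384 and 553.

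Among the 10 antagonists, SFRP1 and SFRP2 were called higher in MVs and none higher in EXOs, beside 11.4% and 2.77% of all genes. Both are secreted proteins with a Frizzled-like domain that binds Wnt ligands. SFRP1 gave 3007, 2827 and 3099 in MVs, 1664, 1047 and 1577 in EXOs, and 1091, 1717 and 1458 in hESEVs. MVs arrays lay above all others, and EXOs and hESEVs arrays overlapped. The 2.12-fold SFRP1 difference between MVs and EXOs was 1.09 ± 0.18 on the log2 scale (SE, limma adjusted p = 0.0035). It was just over the fold threshold, was 0.88 and under 2-fold without EXOs replicate 2, and was 0.46 and not called after quantile normalization (limma adjusted p = 0.21). The other 3 SFRP1 probe sets differed by 1.95, 0.27 and −0.85 on the log2 scale, and none was called.

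SFRP2 gave 1656, 1176 and 1475 in MVs, 497, 352 and 68.3 in EXOs, and 827, 748 and 1126 in hESEVs. The 3 groups did not overlap, MVs being highest and EXOs lowest, and EXOs replicate 3 stood far below the other EXOs arrays. The difference between MVs and EXOs was 2.64 ± 0.67 on the log2 scale (SE, limma adjusted p = 0.028). Leaving out MVs replicate 1, 2 or 3 gave a limma adjusted p of 0.092, 0.069 or 0.082, with log2 differences of 2.53, 2.77 and 2.61. Without EXOs replicate 3 the difference was 1.77 and without EXOs replicate 1 it was 3.20, both still called (limma adjusted p = 0.0035 and 0.021). A second SFRP2 probe set gave 1169, 1374 and 881 in MVs, 32.5, 48.8 and 45.2 in EXOs, and 137, 81.4 and 55.6 in hESEVs. There the MVs arrays were far above the others (limma adjusted p = 7.2e-04 against EXOs over all probe sets), with EXOs signals near the floor of 32, and the hESEVs arrays lay close above the EXOs arrays.

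FRZB, a further Frizzled-related antagonist, gave 620, 588 and 659 in MVs, 1184, 580 and 869 in EXOs, and 1339, 1211 and 1062 in hESEVs. EXOs arrays overlapped with both other groups, and all hESEVs arrays were above all MVs arrays. DKK3, a divergent Dickkopf, gave 769.5, 518 and 1198 in MVs, 685, 1200 and 1221 in EXOs, and 725, 799 and 759 in hESEVs. Its groups overlapped, and neither FRZB (log2 difference −0.44 ± 0.28) nor DKK3 (−0.36 ± 0.35) was called between MVs and EXOs (SE, limma adjusted p = 0.31 and 0.50). The other 6 antagonists, DKK1, DKK2, DKK4, SFRP4, SFRP5 and WIF1, were not called. SFRP4 had a log2 difference of −0.90 ± 0.26 and a limma adjusted p of 0.047, past the adjusted p and under 2-fold.

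**Figure D3:**
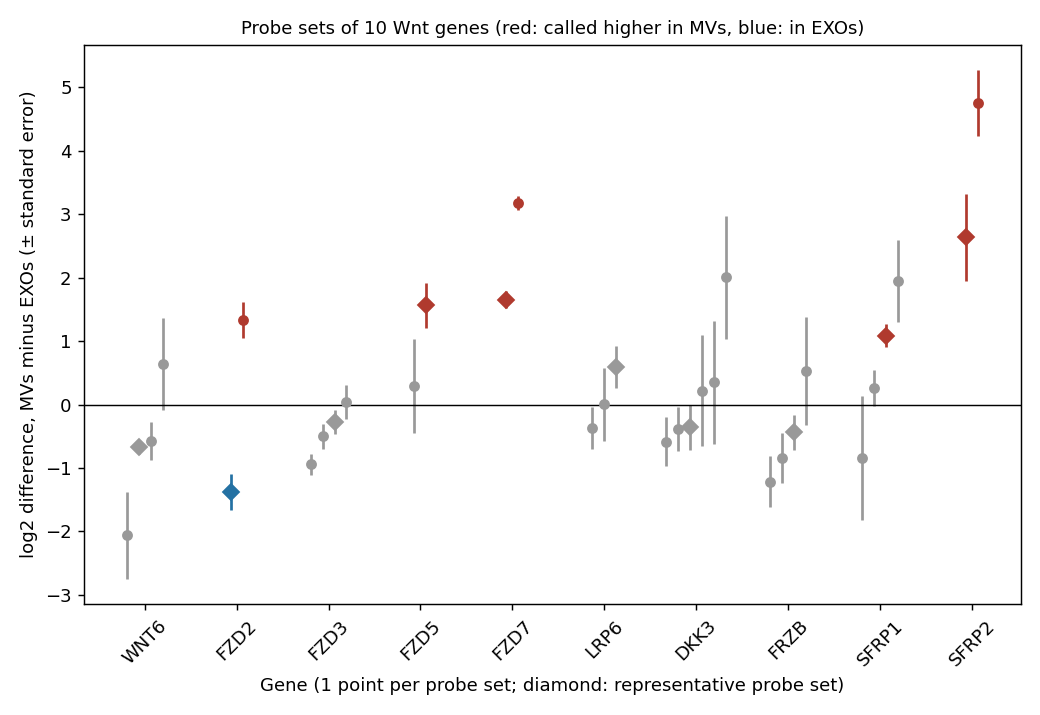
The log2 difference, MVs minus EXOs, of every probe set of the 10 genes described array by array, with its standard error (3 arrays per group) and diamonds for the representative probe set. Red points were called higher in MVs, blue points higher in EXOs and grey points were not called. Both probe sets of FZD7 and of SFRP2 were called higher in MVs, and the 2 of FZD2 were called in opposite directions.

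The 41 genes have 85 probe sets, and 25 of the genes have more than 1. When each was tested on its own, 7 were called higher in MVs, beside 8.44% of all probe sets, and 1 higher in EXOs, beside 1.77%. For 16 of the 25 genes the probe sets had log2 differences of both signs, and for 1 gene, FZD2, they were called in both directions.

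By the means of their representative probe sets, FZD7 and SFRP1 were closer to EXOs than to MVs in non-fractionated hESEVs. A lower SFRP1 probe set, not above the background level in any group, went the other way, with means of 260 in MVs, 69.8 in EXOs and 273 in hESEVs. Both comparisons use the same hESEVs arrays. FZD7 was lower in hESEVs than in MVs (log2 difference, hESEVs minus MVs, −1.48 ± 0.14, limma adjusted p = 3.6e-05), and SFRP1 was lower by 2.13-fold (−1.09 ± 0.20, limma adjusted p = 0.0040). These 2 genes were the ones called higher in MVs, beside 7.17% of all genes, and 0 were called higher in hESEVs, beside 1.56% of all genes. SFRP1 lost its call without hESEVs replicate 1. Of the 41 genes, 11 had an unadjusted limma p under 0.05 in either direction. This count was not made over all genes and is not read as an excess. Arrays of hESEVs and MVs did not overlap for 7 genes in the direction of hESEVs (17.1%, beside 18.1% of all genes). In the direction of MVs they did not overlap for 5 (12.2%, beside 17.1% of all genes). Among single probe sets, 4 were called higher in MVs than in hESEVs, beside 4.85% of all probe sets, and 0 higher in hESEVs, beside 1.05%. They were both of FZD7, the representative one of SFRP1 and the second of SFRP2, which was higher in MVs with hESEVs under the background level (limma adjusted p = 0.0021 over all probe sets), while the representative one of SFRP2 differed by −0.68 ± 0.59 and was not called. FRZB was above MVs in hESEVs by 0.95 ± 0.25 on the log2 scale (limma adjusted p = 0.029), under the fold threshold. LRP5, at 257, 364 and 297 in hESEVs and 64.7, 85.8 and 75.4 in MVs, was not called (limma adjusted p = 0.11), but it was called higher in hESEVs in a fit of these 6 arrays alone, with all signals under the background levels. The second LRP5 probe set, with means of 49.8 in hESEVs and 59.6 in MVs, differed by −0.15 on the log2 scale and was not called.

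Against EXOs, limma called 0 genes higher in hESEVs, beside 3.28% of all genes, and 0 higher in EXOs, beside 0.172%. In this comparison 7 of the 41 had an unadjusted limma p under 0.05. That count was not made over all genes and is not read as an excess. Arrays of hESEVs and EXOs did not overlap for 3 genes in the direction of hESEVs (7.32%, beside 11.2% of all genes). In the direction of EXOs they did not overlap for 7 (17.1%, beside 7.93% of all genes). The methods' t-test without adjustment gave 1 call in each direction, WNT8B in hESEVs and WNT2 in EXOs. Over all 19775 genes it gave 795 higher in hESEVs and 181 higher in EXOs. The differences, hESEVs minus EXOs, were 0.17 ± 0.14 for FZD7, −0.00 ± 0.20 for SFRP1, 0.29 ± 0.39 for FZD5 and 1.96 ± 0.59 for SFRP2 on the log2 scale (SE). SFRP2, whose arrays did not overlap between these groups, had a limma adjusted p of 0.11, and it was called higher in hESEVs without EXOs replicate 1 or 3. By single probe sets, 1, of FZD1, was called higher in hESEVs, beside 2.14% of all probe sets, and 0 higher in EXOs, beside 0.11% (FZD1 log2 difference 2.76, limma adjusted p = 0.019), at signals of 321, 258 and 323 against 64.9, 41.1 and 12.3, and the other 2 FZD1 probe sets were not.

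The rest of the pathway was read from 81 listed genes, of which 76 were measured. Of these, 8 were called higher in MVs than in EXOs, beside 11.4% of all genes, 2 higher in EXOs, beside 2.77%, and 66 were not called, at a median log2 difference of −0.10 beside −0.23 over all genes. Among 35 genes of signal transduction, 7 were higher in MVs and 0 in EXOs, beside the same 11.4% and 2.77%. CTNNB1, which encodes beta-catenin, had signals of 4586, 4895 and 4646 in MVs, 1073, 770 and 1209 in EXOs, and 1752, 2434 and 1596 in hESEVs. The CTNNB1 groups did not overlap, MVs being highest and EXOs lowest, with a log2 difference of 2.24 ± 0.17 between them (SE, limma adjusted p = 3.0e-05). TCF7L1, a TCF factor that represses targets in hESCs, was higher in MVs, at 1964, 2662 and 1885 against 595, 634 and 757 in EXOs. PPP2CA, a catalytic subunit of protein phosphatase 2A, was 3.10-fold higher, at 3947, 3754 and 3581 against 1120, 1163 and 1366. In both the MVs arrays stood apart from all others. The other 4 called were TCF7L2, a TCF factor (log2 difference 1.18), CSNK1A1, a kinase that primes beta-catenin for degradation (1.14), DVL1, the adaptor beneath Frizzled (1.43), and BCL9, a beta-catenin coactivator (3.34, with EXOs signals of 27.8 to 81.2 that reach the floor of 32 and MVs signals under the background level).

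Among 27 co-receptors and modulators at the membrane, limma called 1 in the direction of MVs and 2 in that of EXOs, beside 11.4% and 2.77% of all genes. GPC4, a cell-surface glypican, was higher in MVs, at 1410, 1138 and 1351 against 644, 510 and 739 in EXOs. RNF43, a ligase that removes Frizzleds from the surface, had signals of 48.4, 52.5 and 19.9 in MVs, 238, 275 and 302 in EXOs, and 49.6, 77.0 and 92.3 in hESEVs (limma adjusted p = 0.0059 between MVs and EXOs). NOTUM, an enzyme that strips the lipid from Wnt ligands, had 105, 146 and 156 in MVs, 457, 353 and 615 in EXOs, and 107, 143 and 71.7 in hESEVs (limma adjusted p = 0.035). For both genes the EXOs arrays were above all arrays of both other groups, and all values lay below the background levels. GPC3, another glypican, had a log2 difference of −0.74, under the fold threshold (limma adjusted p = 0.028). None of 14 transcriptional targets was called, and none was above the background level. APCDD1 (log2 difference −1.11), AXIN2 (−1.11) and MYC (1.14), the 3 with the lowest p, had limma adjusted p of 0.066, 0.092 and 0.066. Between hESEVs and MVs, 4 of the 76 genes, CTNNB1, TCF7L1, PPP2CA and CSNK1A1, were called higher in MVs, beside 7.17% of all genes. In that comparison 0 were called higher in hESEVs, beside 1.56%. Between hESEVs and EXOs, 2 of the 76, RNF43 and NOTUM, were called higher in EXOs, beside 0.172% of all genes. There 0 were called higher in hESEVs, beside 3.28%.

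**Figure D4:**
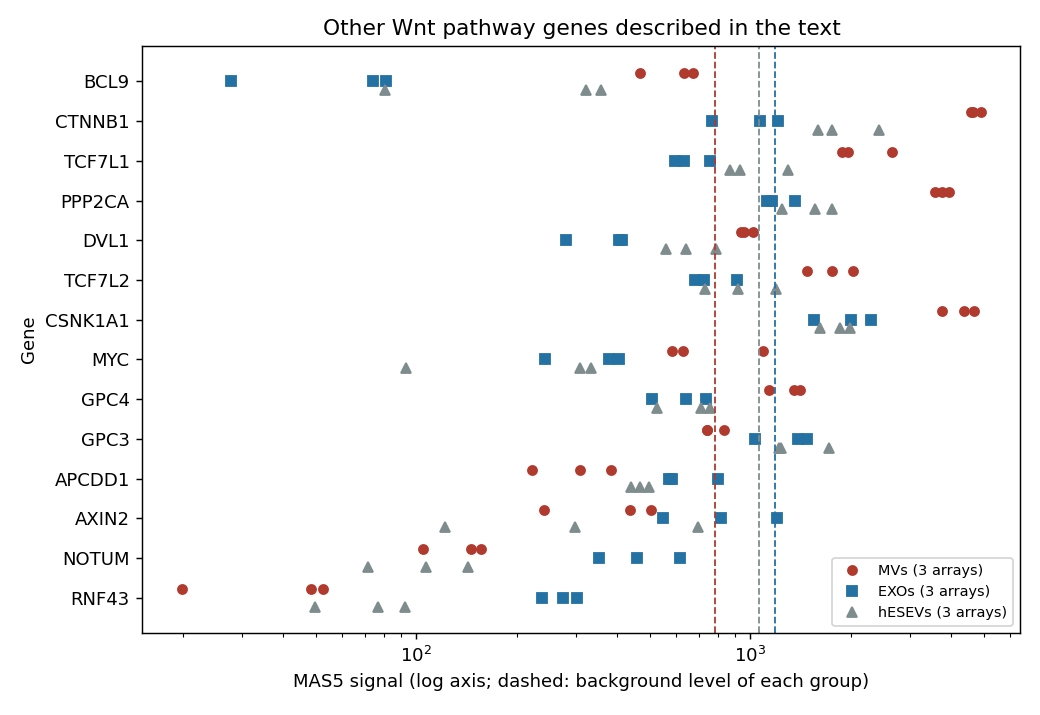
MAS5 signal (log axis) of the other Wnt pathway genes described, 1 point per array, with circles for MVs, squares for EXOs, triangles for hESEVs and dashed lines at the background levels. CTNNB1, PPP2CA and TCF7L1 show MVs arrays to the right of all others, and RNF43 and NOTUM show EXOs arrays to the right of all others at signals below the lines.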

How the data were processed

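RNA of MVs, EXOs and hESEVs was hybridized to 9 arrays of the Affymetrix HG-U133 Plus 2.0 type, 3 biological samples per group as the study's methods describe them. The authors deposited an intensity per probe set, MAS5 signals on a linear scale (version not given in the sources used here) scaled to a target of 500. The RMA values of the study are not used here. All 54675 probe sets were read, and 62 controls, 1801 paired with several genes and 11721 with none were left out of the tests.

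Signals were floored at 32 and log2 transformed, and each of 19775 genes was taken from its probe set of highest mean. MVs and EXOs were compared on 6 arrays, the comparisons with hESEVs used 1 fit of all 9, with limma 3.58.1 in R 4.3.3 (lmFit, eBayes with trend, two-sided), tested on simulated data. Arrays limit precision by their number, 3 per group. Genes were named where they were called or where a group mean passed the background level, and, of the other pathway genes, the 3 with the lowest p in each list and all called; genes outside this rule are said to be so. Gene IDs of all 41 genes were found in RefSeq (GRCh38.p14). The Wnt genes and all lists were chosen with earlier results of these data known. Alternatives covered the study's t-test, scaling, floor, probe set choice, filter, trend, replicate block, arrays fitted and each array left out. The labels do not say whether arrays with the same replicate number share a culture. Correlations between same-numbered arrays, of the deviations from their group means, ran from −0.014 to 0.0050. Such correlations cannot show that the arrays are unpaired, and the main fit uses no pairing.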

Additional observations from a re-analysis of the deposited data

How the results depend on the processing

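FZD7 was the 1 called gene that kept its call under every alternative with a value for it; FZD7, SFRP1 and SFRP2 have only probe sets with a shared suffix and FZD5 lies under the median signal, so these have no value without such probe sets or above that median. DKK3, FRZB, FZD3 and LRP6 were not called under any. Between MVs and EXOs, the 4 genes higher in MVs were 2 by the t-test with Benjamini-Hochberg adjustment, 2 by the mean of a gene's probe sets, 1 (FZD2) without probe sets shared among transcripts, and 2 to 4 with each array left out (2 without MVs replicate 2 or 3). The 1 gene higher in EXOs became 0 under each of the same alternatives except the arrays left out, and 2 after quantile normalization, and was 1 to 2 with each array left out. FZD2 turned to 1.33 without shared probe sets and was −0.03 by the mean of its probe sets, which turned DKK3 to 0.21. The mean also gave FZD5 0.93 and SFRP1 0.62, both not called. SFRP2 had a limma adjusted p of 0.067 without the trend. With a replicate block FZD5 had a limma adjusted p of 0.059, leaving 3 genes higher in MVs and 1 in EXOs. Whether equal replicate numbers share a culture is not known.

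The 8 other pathway genes higher in MVs were 5 by the mean of probe sets. The 2 higher in EXOs were 1 after median centring, with spike-ins, above the median signal and with the replicate block, 4 with hESEVs in the fit, and 1 to 2 with each array left out. Genes higher in hESEVs than in MVs went from 0 to 1 (LRP5) by the t-test with and without adjustment and in the fit of 6 arrays. Genes higher in MVs than in hESEVs went from 2 to 0 without shared probe sets, and to 1 to 3 with each array left out (1 without hESEVs replicate 1). Genes higher in hESEVs than in EXOs went from 0 to 1 by the unadjusted t-test, above the median signal and by single probe sets, an alternative chosen after seeing the data, and were 0 to 1 with each array left out. Those higher in EXOs went from 0 to 1 by the unadjusted t-test and were 0 to 1 with each array left out.

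Median centring moved the median log2 difference of all genes between MVs and EXOs from −0.23 to 0.00, and the calls from 2264 higher in MVs and 548 higher in EXOs to 2719 and 191. Apart from fewer genes or arrays where an alternative removes them, the cause of these changes was not tested. With 3 arrays per group, a difference not called is not shown to be absent, and 32 of the 41 genes were not above the background level in any group.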
